A study of Mus musculus with 2 samples.

Results

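The interferon-stimulated genes form 1 of the main antiviral and antibacterial programmes of the liver, and 38 of them were followed here by family in fibrotic mouse liver after treatment with recombinant TSG-6 or with PBS. The members were chosen by name, as genes of the Ifit, Oas, Mx, Gbp and IRG families, the immunoproteasome and other widely used interferon targets, and a probe counted for a member when its transcript accession belonged to that gene in the RefSeq gene table. Of 20284 genes with a matched probe, 36 were members, read by 47 probes. Of these 36, 32 were well above background on both arrays and 4 (Ifit1, Gbp3, Irf7 and Ifi35) had only spots that the scanner software flagged as outliers. No probe matched Mx1 or Mx2, which the table lists as transcribed pseudogenes, so the Mx family has no value and the type I side rests on Ifit and Oas.

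Both groups were male C57BL/6 mice with liver fibrosis. The control group received PBS, the vehicle. The treated group was given intravenous TSG-6 made as a recombinant protein; TSG-6 is secreted at sites of inflammation and binds hyaluronan. Total liver RNA was taken 2 weeks later, and the RNA of 3 mice was mixed in equal parts for each group and hybridised to 1 one-colour array, so that the data are 2 arrays. How fibrosis was induced, the dose and the age of the mice are not given in the sources used here, and no liver without fibrosis was analysed here. With 1 pool per group there is no replicate, no test and no p-value, and each difference below is that between these 2 pools, in which array and group cannot be told apart. In whole liver, fewer cells of a type and less RNA per cell cannot be told apart either.

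Type I interferons (alpha and beta) signal through the receptor pair encoded by Ifnar1 and Ifnar2 to a transcription factor complex that includes STAT2 and IRF9 and binds the interferon-stimulated response element (ISRE) in promoters. Type II interferon (gamma) signals through Ifngr1 and Ifngr2 to factors that bind the gamma-activated site (GAS), and through IRF1, which binds ISRE-like sequences. The classes overlap, since many genes answer to both. In the liver these genes are expressed by hepatocytes, macrophages and endothelial cells alike.

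The promoter sequences below are shown because they are the part of these genes through which the interferon factors act, and because the adjacent genes Oas1a and Oas1g, and Igtp and Irgm2, share long stretches of them. They were read from RefSeq promoter windows of build GRCm38.p6, 250 bases before to 50 bases after each transcript start, which were found for 30 of the 38 members. For the ISRE the letters GAAA, any 2 bases and GAAA were searched, with their reverse complement TTTC, any 2 bases and TTTC, and for the GAS the letters TTCNNNGAA, which read the same on both strands. Matches may overlap each other, as the GAS and ISRE matches of Bst2 do. Each stretch is 60 bases upstream of the start, 5′ to 3′ on the strand of the gene, with matches in capitals.
Isg15 (chr4:156200856-156200915, minus strand): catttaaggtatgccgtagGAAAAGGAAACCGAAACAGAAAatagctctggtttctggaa
Ifit1 (chr19:34640769-34640828, plus strand): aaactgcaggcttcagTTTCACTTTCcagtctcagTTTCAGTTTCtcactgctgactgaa
Oas1a (chr5:120907526-120907585, minus strand): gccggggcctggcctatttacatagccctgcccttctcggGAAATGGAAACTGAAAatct
Oas1g (chr5:120887614-120887673, minus strand): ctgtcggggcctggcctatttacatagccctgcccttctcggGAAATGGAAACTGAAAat
Gbp2 (chr3:142620579-142620638, plus strand): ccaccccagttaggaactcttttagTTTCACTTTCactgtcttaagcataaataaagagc
Igtp (chr11:58199491-58199550, plus strand): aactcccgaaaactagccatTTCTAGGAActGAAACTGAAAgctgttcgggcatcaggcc
Irgm2 (chr11:58214882-58214941, plus strand): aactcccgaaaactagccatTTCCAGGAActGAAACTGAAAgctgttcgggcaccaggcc
Tgtp1 (chr11:48992295-48992354, minus strand): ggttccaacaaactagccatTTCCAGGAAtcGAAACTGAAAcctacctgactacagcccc
Irgm1 (chr11:48871421-48871480, minus strand): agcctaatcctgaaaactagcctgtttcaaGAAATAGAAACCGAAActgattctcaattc

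An ISRE match lay in a window of 17 of the 30 members, against 3.99% of all 27025 genes with a window, and a GAS match in 10 of 30, against 9.55%. The type I families held an ISRE in 5 of 8 genes and a GAS in 2 of 8. The type II families held an ISRE in 7 of 9 and a GAS in 5 of 9, and both in 4 of 9 (Gbp5, Igtp, Irgm2 and Tgtp1), against 0.614% of all genes for both. Both classes thus carry the ISRE letters. In Igtp, Irgm2 and Tgtp1 the ISRE started exactly 11 bases after the GAS. Among all 32851 windows this spacing, noticed after the windows had been read, was found in 5, those of Igtp, Irgm2, Tgtp1, Tgtp2 and Gm12185, which are related GTPase genes. The windows of Igtp and Irgm2, which are adjacent genes, share a run of 61 bases, and those of the adjacent genes Oas1a and Oas1g share a run of 73 bases. Oasl1, Oasl2 and Ifit2 held no ISRE match in their windows. These matches describe letters only and show no binding.

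**Figure D1:**
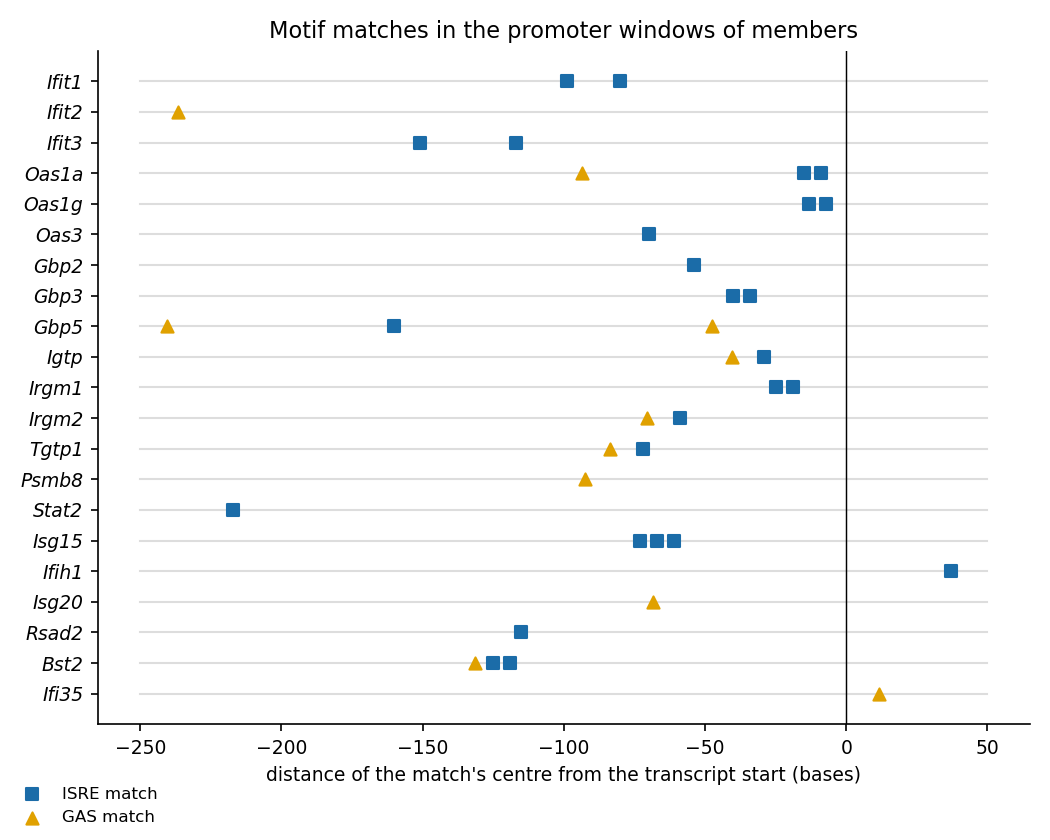
ISRE (squares) and GAS (triangles) matches in the promoter windows of the members that hold at least 1 match; the x axis is the distance in bases of the match's centre from the transcript start and each line is the window of 1 gene. The ISRE matches of Oas1a, Oas1g and Irgm1 lie next to the start, and Igtp, Irgm2 and Tgtp1 each show a GAS just before an ISRE.

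Levels are given in log2 units against the 75th percentile of the same array, and a difference is the TSG-6 level less the PBS level, so that a negative one means lower with TSG-6. As background, 15151 genes were measured on both arrays, with a median difference of 0.08, and 42.5% of them lay below 0. At least 2-fold lower were 4.29% of these genes and at least 2-fold higher 2.94%. Higher genes made up 40.7% of those past 2-fold, but 14.2% after spike-in scaling and 73.0% with the percentile of unflagged spots. These scalings put the median of all genes at -0.25 and at 0.37, so each member is read here against that median and not against 0. Replicate spots of 1 probe differed by an SD of 0.13 in the log2 difference (327 probes), and different probes of 1 gene by an SD of 0.35 (3469 genes). A member difference smaller than the second value may thus depend on the probe.

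Most interferon-stimulated genes differed little between the pools, and of the families the 6 listed Oas genes had the lowest median. Of 32 measured members, 1 was at least 2-fold lower and none at least 2-fold higher, which is near the background shares above. At 1.5-fold, 3 were lower (Oas1a, Oas1g and Irgm1) against a background of 10.3%, again near it, and none was higher against 10.5%. The median over the 32 was -0.14, and 26 lay below the median of all genes, where the background is 50%. Their differences ran from -1.50 to 0.28.

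**Figure D2:**
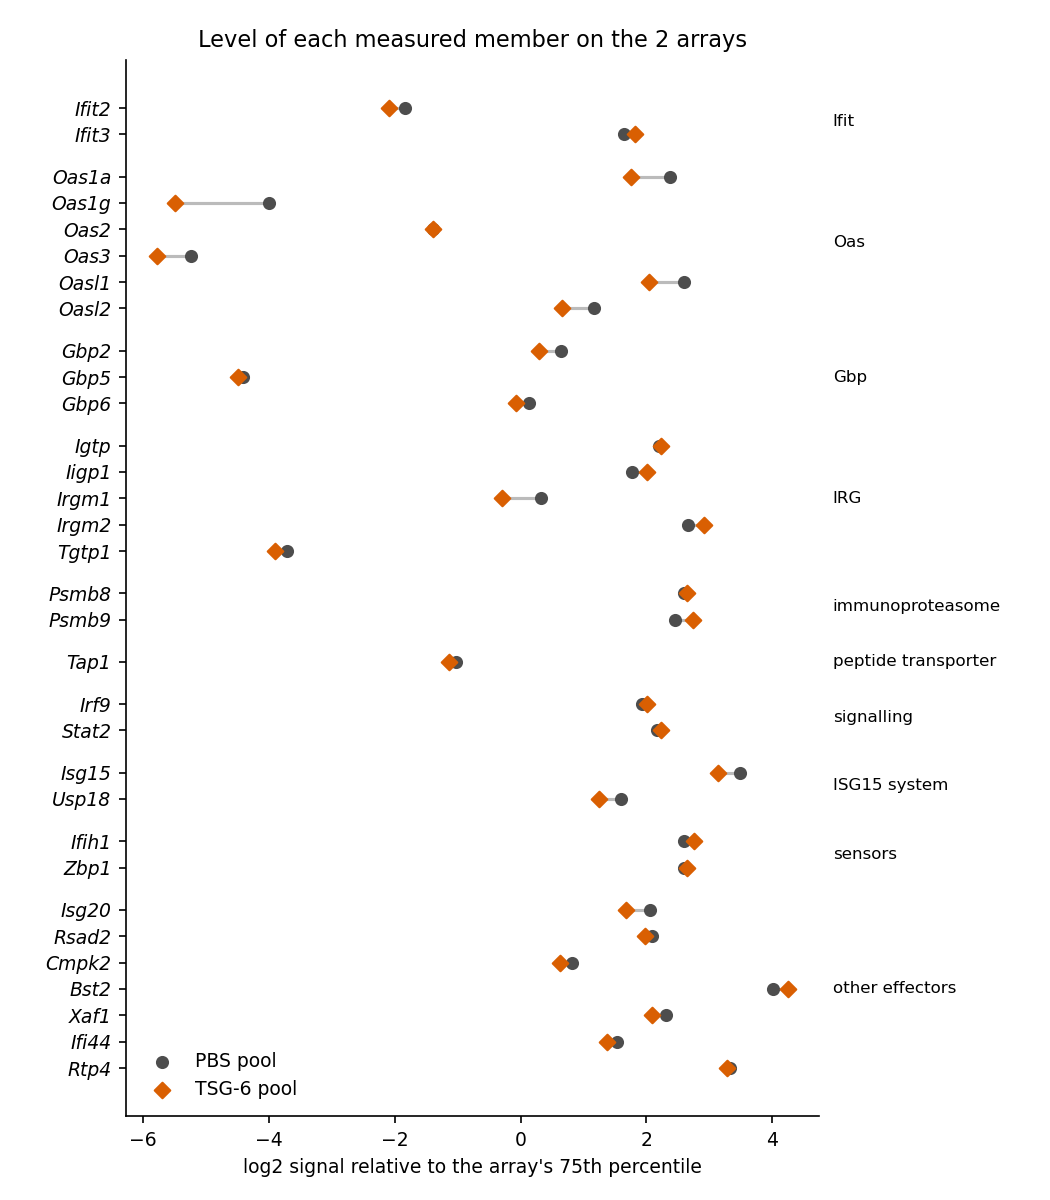
Log2 level, against the 75th percentile of the same array, for each of the 32 measured members in the PBS pool (circles) and the TSG-6 pool (diamonds), 1 array each, grouped by family; levels of different genes come from different probes and are not comparable. Oas1g shows the widest gap, from -4.00 to -5.50, while Stat2, Irf9, Zbp1 and Psmb8 nearly coincide.

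The Oas genes encode oligoadenylate synthases, which sense double-stranded RNA and activate RNase L. Oas1a had a level of 2.37 in the PBS pool and 1.76 in the TSG-6 pool, 1.53-fold lower, and its second probe gave a similar difference of -0.66. Oas1a was bright, and the differences of both probes were larger than the spot noise. Oas1g, its neighbour, stood at -4.00 and -5.50, 2.83-fold lower. Its signal was dim, its other probe was not well above background, and the difference was -0.69 under normexp background correction. Normexp as used here adds an offset of 50 to each signal, which by arithmetic shrinks the log2 difference of a dim probe. How much of the change came from the offset was not tested. Oas1 genes have similar sequences, so the value of a single one is uncertain. The Oas-like genes lack much or all of the synthase activity of their relatives, and Oasl1 is known as a brake on the translation of Irf7. Oasl1 was 2.60 in the PBS pool and 2.04 in the TSG-6 pool, 1.47-fold lower. Oasl2, adjacent to it, was 1.16 and 0.66, 1.42-fold lower. Both were bright, and both differences were larger than the spot noise.

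Oas3, the long member that prefers long double-stranded RNA, was dim, at -5.24 and -5.77, and its difference of -0.53 was -0.07 under normexp. Oas2 was the exception among these 6, at -1.40 in the PBS pool and -1.39 in the TSG-6 pool. The 6 listed genes thus had 5 below 0 and all 6 below the median of all genes, with a median of -0.55. With other scalings, filters and background corrections, 5 of the 6 stayed below the median of all genes throughout, and Oas2 did so in 11 of 12 settings. The scalings that add a constant to an array could not change this. Of the Oas1 relatives outside the member list, Oas1d (0.46), Oas1h (0.15) and Oas1e (0.10) lay above the median of all genes. Oas1c (-0.31) lay below it. Oas1f had only flagged spots and differed by -0.31 with them kept. The differences of Oas1c, Oas1e and Oas1h were smaller than the SD of 0.35 between probes of 1 gene. Lower values were thus not found in every Oas gene, and Oas1d was the clearest exception.

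The Ifit genes, which encode proteins that bind viral RNA lacking the cap marks of the host, did not move together. Ifit2 was -1.84 in the PBS pool and -2.09 in the TSG-6 pool, a difference of -0.25. Ifit3 was 1.65 and 1.82, a difference of 0.17. Ifit1 had a single spot, flagged on the TSG-6 array, and was higher by 0.57 with flagged spots kept. The 3 genes lie close together in the genome, yet they lay on both sides of the median of all genes.

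The guanylate-binding proteins are large interferon-gamma-inducible GTPases that attack the vacuoles of intracellular microbes. Gbp2 was 0.65 in the PBS pool and 0.29 in the TSG-6 pool, 1.28-fold lower. Gbp5, a dim gene here, differed by -0.08. Gbp6 differed by -0.21 with its brighter probe and by 0.52 with the other, so its direction was not settled. Gbp3 had a flagged spot on the TSG-6 array and differed by -0.05 with that spot kept. The Gbp family median of -0.21, over 3 measured genes, is the value of the brighter Gbp6 probe, so its size was not settled either. Gbp2 and Gbp5 both lay below the median of all genes.

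The immunity-related GTPases (IRG) comprise the regulators Irgm1, Irgm2 and Igtp and the effectors Iigp1 and Tgtp1, which coat pathogen vacuoles. Igtp had 10 replicate spots on each array. Its level was 2.20 ± 0.03 (SD over 9 unflagged spots) in the PBS pool and 2.22 ± 0.04 (7 spots) in the TSG-6 pool, a difference of 0.02 with a spot SE of 0.02. That error covers spots and not mice. Irgm2, its neighbour with the near-identical promoter stretch shown above, was 2.66 and 2.91, a difference of 0.25. Iigp1 was 1.77 and 2.01, a difference of 0.24. Irgm1 went the other way, at 0.32 in the PBS pool and -0.30 in the TSG-6 pool, 1.54-fold lower. Its second probe was flagged on both arrays, and reading the gene from it gave -0.21. Tgtp1 was dim and differed by -0.19. Its sequence is similar to that of the bright Tgtp2, so its single value is uncertain. Tgtp2 differed by 0.18 with its main probe and by -0.23 with its other. The IRG genes thus ran from -0.62 to 0.25, on both sides of the median of all genes.

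The immunoproteasome subunits Psmb8 and Psmb9 replace constitutive subunits of the proteasome and shape the peptides shown on MHC class I, and Tap1 carries those peptides into the endoplasmic reticulum. Psmb8 was 2.60 in the PBS pool and 2.65 in the TSG-6 pool. Psmb9 was 2.46 and 2.74, a difference of 0.28, the highest of all measured members. Tap1, next to Psmb9 with an overlapping promoter window on the opposite strand, had 10 spots per array. It stood at -1.03 ± 0.08 (SD, 10 unflagged spots) and -1.15 ± 0.11 (8 spots), a difference of -0.12 with a spot SE of 0.05. Of 11 measured constitutive proteasome subunits, all 11 lay above 0 with a median of 0.20, none of them past 2-fold. The lowest, Psmb7 at 0.0715, lay just below the median of all genes, 0.0763. The list of MHC class I processing and presentation, which includes these 3 members, had a median of 0.34, with 14 of 16 above 0 and none past 2-fold. Its highest were the heavy chain genes H2-Q4 and H2-K1, both at 0.52, and Nlrc5, the transactivator of class I genes, differed by 0.45. Heavy chains have similar sequences, so single values are uncertain, and 4 genes of the list had only flagged spots. The counts above 0 in these lists hold for the scaling used here. Spike-in scaling moves every gene by -0.32 from these values, and neither count holds there. It puts the constitutive median of 0.20 below 0, and also Psmb8 at -0.27 and Psmb9 at -0.05. Whether the counts hold under the other settings was not tested.

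**Figure D3:**
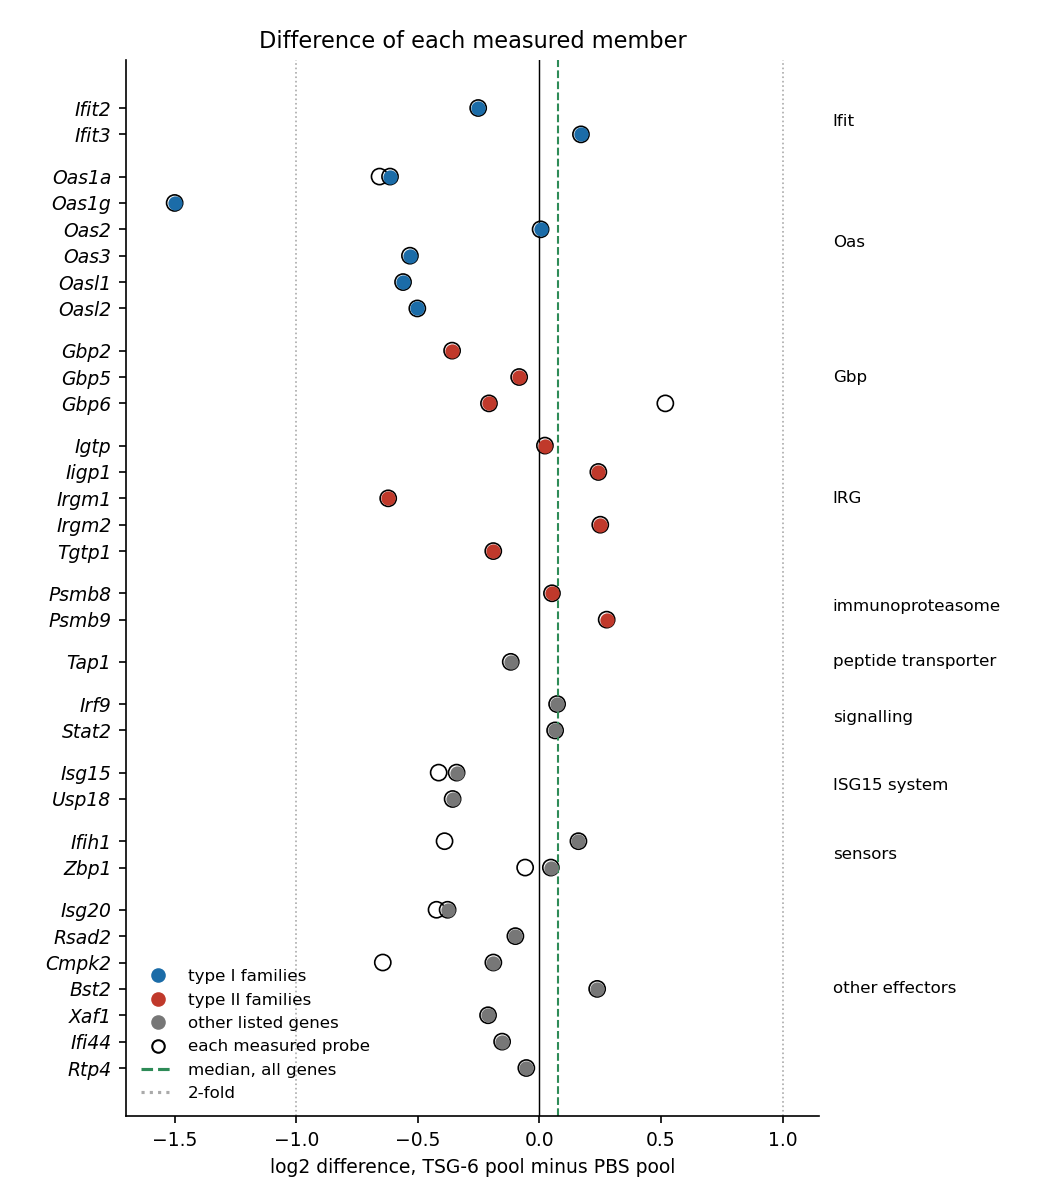
Log2 difference, TSG-6 less PBS, of each measured member by family; filled points are the probe used for the gene, open circles every measured probe, the dashed line the median of all genes (0.08) and dotted lines 2-fold. Of the 6 Oas genes 5 lie at or below -0.50, while the IRG genes and Psmb8 and Psmb9 lie on both sides of the dashed line.

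Set side by side, the type I families (Ifit and Oas, 8 measured genes) had a median of -0.52 and the type II families (Gbp, IRG and immunoproteasome, 10 measured genes) a median of -0.03. The type I values ran from -1.50 to 0.17 and the type II values from -0.62 to 0.28, so the groups overlap. The medians differed by -0.49, and any scaling that adds a constant to an array leaves this value as it is. Background correction did not, since it came to -0.27 with normexp. The gap rested on the Oas genes: it was -0.010 without them, an alternative chosen after seeing the data, and -0.35 without the dim Oas1g and Oas3. With the other listed genes except Tap1 added to the type I side, its median was -0.19 and the gap -0.16. Members of a family are not replicates of a condition, and no test of this gap was made.

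**Figure D4:**
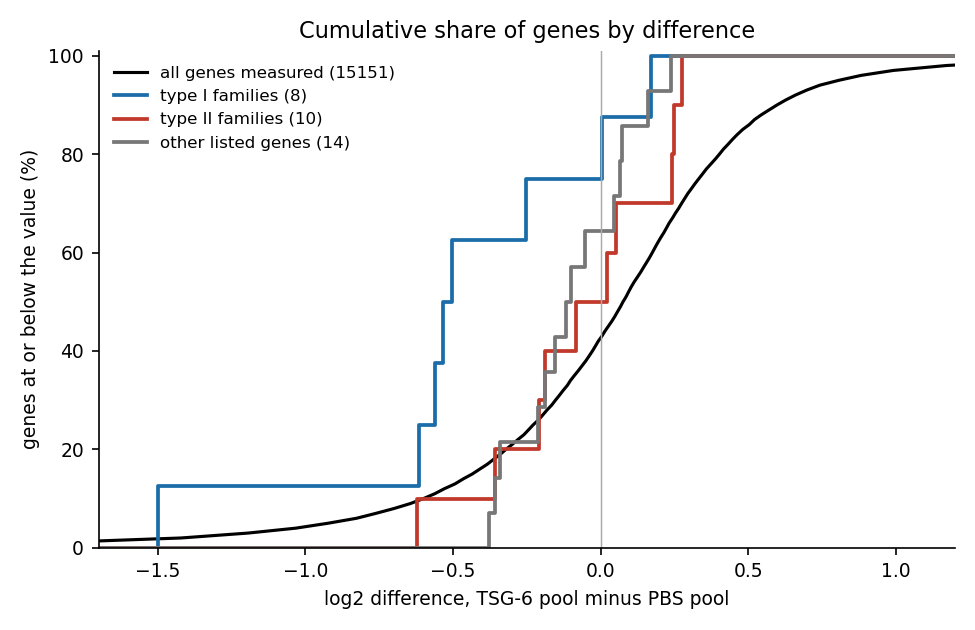
Cumulative share of genes (y axis, percent) at or below a log2 difference (x axis) for the 15151 measured genes, the 8 type I, the 10 type II and the 14 other listed genes. The type I curve lies left of the others because 5 of its 8 genes are at or below -0.50, and no member curve goes on past 0.28.

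Of the remaining members, those of the ISG15 system were lower and the signalling factors were level. Isg15, a ubiquitin-like modifier and among the most strongly induced of these genes, was 3.48 in the PBS pool and 3.14 in the TSG-6 pool, 1.27-fold lower, with a difference of -0.41 at its second probe. Usp18, which removes ISG15 and blocks the type I receptor, was 1.60 and 1.24, 1.28-fold lower. The exonuclease gene Isg20 was 2.06 and 1.68, 1.30-fold lower, with -0.42 at its second probe. All 3 passed the spot noise, which covers neither probes nor mice, but they were not extreme. Of all measured genes, 18.9% lay lower than Isg15, 18.2% lower than Usp18 and 17.3% lower than Isg20. The 3 stayed below the median of all genes in each of 13 settings. Those settings that only add a constant to an array could not change this.

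Stat2 and Irf9, which encode parts of the type I complex, differed by 0.06 and 0.07, at the median of all genes. Irf7, the amplifier of type I interferon production, had a flagged spot on the TSG-6 array and differed by -0.04 with it kept. The RNA sensor gene Ifih1 differed by 0.16 with its brighter probe and -0.39 with its dimmer one, and Zbp1, a sensor of Z-form nucleic acid, by 0.05 and -0.06. Neither sensor had a settled direction.

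The other effectors were mostly a little below the median of all genes. Rsad2, which encodes the antiviral enzyme viperin, differed by -0.10, and its neighbour Cmpk2, a mitochondrial nucleotide kinase, by -0.19 with its brighter probe and -0.64 with the other. Xaf1 differed by -0.21, Ifi44 by -0.15 and Rtp4 by -0.05. Bst2, which encodes tetherin and is the exception here, was 4.0 in the PBS pool and 4.24 in the TSG-6 pool, a difference of 0.24. Ifi35 differed by 0.09 with a flagged spot kept. None of these reached 1.5-fold with its main probe.

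Upstream of these genes, most interferon transcripts had dim probes. Of 21 listed interferon genes, 10 were measured on both arrays. Ifna2, Ifna4, Ifna13 and Ifne were not well above background on either, and Ifna6, Ifna9, Ifna15, Ifnz and Ifnl2 had no matched probe. The measured alpha genes Ifna1, Ifna5, Ifna11, Ifna12, Ifna14, Ifna16 and Ifnab differed by between -0.31 and 0.86; their sequences are similar, so single values are uncertain. Ifnl3, a type III ligand, differed by -0.18. Ifng, the type II ligand, was -3.59 in the PBS pool and -3.45 in the TSG-6 pool. Ifnb1 was above background with PBS only, an estimated 1.17-fold lower with TSG-6, and Ifna7 with TSG-6 only, an estimated 1.87-fold higher. Ifnk, 2.01-fold lower, was the 1 ligand past 2-fold, at a dim signal. The measured receptor genes differed little, with Ifnar1 at -0.25 (0.0029 at its second probe), Ifnar2 at 0.37, Ifngr1 at -0.23, Ifngr2 at -0.095 and Ifnlr1 at -0.026, while Il10rb had only flagged spots. None of 8 measured JAK, STAT and IRF genes passed 2-fold in either direction, with Tyk2, a kinase of the type I receptor, furthest at -0.38. Of the feedback genes, Socs1, the main brake on interferon-gamma signalling, was 1.42-fold lower and Socs3, chiefly a brake on interleukin-6 signalling, 1.41-fold higher; none of 8 passed 2-fold. None of 21 measured nucleic acid sensor and adaptor genes passed 2-fold, the furthest being the DNA sensor gene Cgas at -0.89, whose 3 probes ran from -0.89 to 0.29, and the kinase gene Ikbke at -0.81.

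Relatives outside the member list gave 2 larger values, both higher. Among 14 measured Ifit, Oas, Ifitm and Ifi27 relatives the median was 0.08, and the 1 past 2-fold was Ifitm6, 3.77-fold higher. Among 14 measured Gbp and IRG relatives the median was 0.07, and the 1 past 2-fold was Gbp2b, 4.49-fold higher. Gbp2b was -5.39 in the PBS pool and -3.22 in the TSG-6 pool, with a similar difference of 2.08 at its second probe, and its signal was dim in both pools. These lists share no gene with the members, and their medians were close to that of all genes.

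The cell types that carry interferon responses were checked by marker lists. Their counts are against 0, in the scaling used here, where the median of all genes was 0.08. Spike-in scaling moves every gene by -0.32 from these values. That puts the Kupffer cell and macrophage median of 0.24 below 0, so the counts do not all hold there. The marker lists were not tested under the other settings. All 6 measured hepatocyte markers lay above 0, with a median of 0.37 (2 more had only flagged spots) and a log2 summed level of 6.83 in the PBS pool and 7.23 in the TSG-6 pool. The 8 measured Kupffer cell and macrophage markers had a median of 0.24, with 7 above 0 and summed levels of 5.99 and 6.18; Timd4 among them was 2.39-fold higher. The 15 measured T and NK cell markers, the cells that make interferon gamma, had a median of -0.07 with 10 below 0 and summed levels of 3.23 and 3.24. Markers of plasmacytoid dendritic cells, a main source of type I interferon, had a median of -0.32 with 7 of 9 below 0 and summed levels of 5.0 and 4.50. Ly6d was the brightest of them, at 4.28 in the PBS pool, near the hepatocyte marker Alb at 4.31. Which cells gave the Ly6d signal was not tested. Without Ly6d the summed levels of these markers were 3.65 and 3.59, an alternative chosen after seeing the data. Cox6a2 among them was 3.89-fold lower, and which cells gave its signal was not tested either. Tlr9 went the other way at 0.55, and Siglech differed by 0.10 at 1 probe and -0.69 at the other. Activated stellate cell markers had a median of -0.97 with 7 of 7 below 0 and summed levels of 5.04 and 4.32, and Acta2 (5.55-fold), Lox (3.11-fold, -0.43 at its second probe) and Des (2.35-fold) were past 2-fold lower. Neutrophil markers had a median of 0.31 over 4 measured genes, with summed levels of 4.88 and 5.34. Liver endothelial markers had a median of 0.23 over 6, with 4.41 and 4.67. Conventional dendritic cell markers had a median of 0.20 over 5, with -0.55 and -0.50, and B cell markers 0.14 over 5, with 1.92 and 2.02. No listed marker with an unflagged probe was below background on either array. The part of these shifts in the values of the interferon-stimulated genes was not tested.

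Against 0, 10 of the 32 measured members stayed below wherever they were measured over the 13 settings, and 22 lay on both sides. Against the median of all genes, 21 stayed below, 3 (Iigp1, Irgm2 and Psmb9) stayed above and 8 lay on both sides; Bst2 among these lay above it with the percentile scaling and below it with quantile normalization and loess. A scaling that adds a constant to an array cannot move a gene across that median, so fewer than the 13 settings could do so. Relative to that median the type I families were at -0.59 and the type II families at -0.11.

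**Figure D5:**
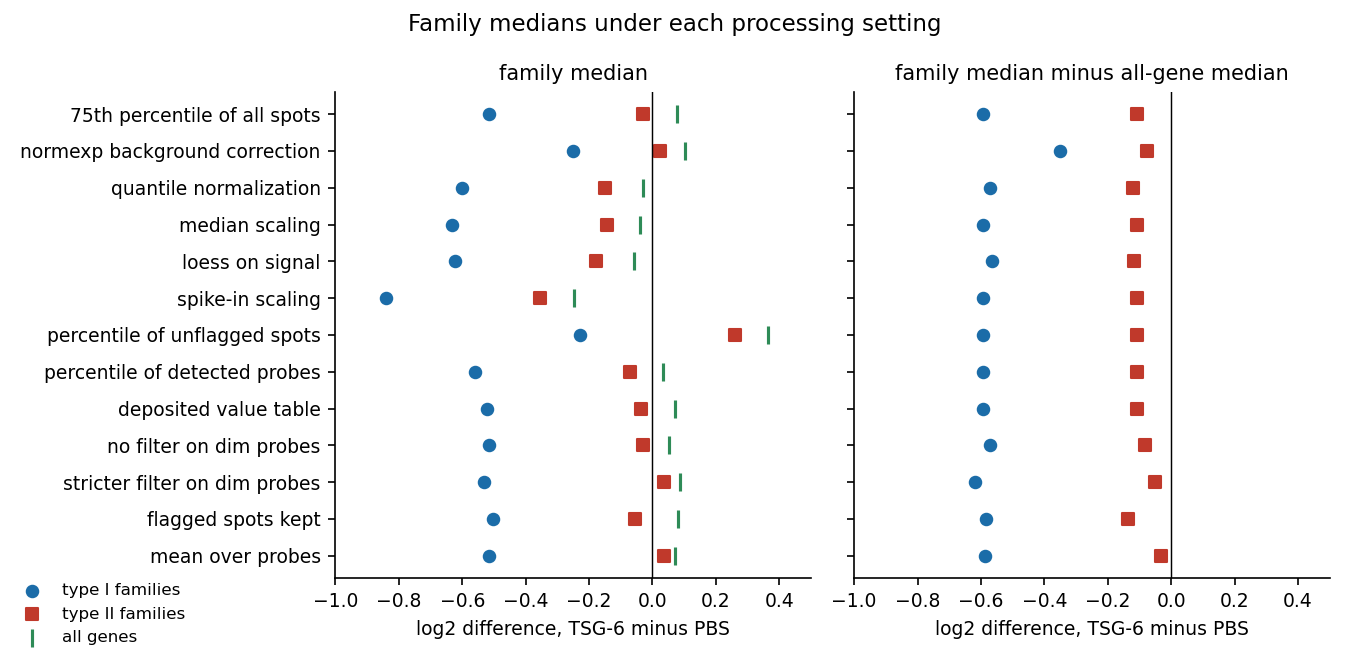
Median log2 difference, TSG-6 less PBS, of the type I families (circles), the type II families (squares) and all genes (bars) under 13 processing settings, as such on the left and minus the all-gene median on the right. On the right the type I median stays between -0.62 and -0.35 and the type II median between -0.14 and -0.03.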

How the data were processed

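The values used are spot intensities on a linear scale, taken from the deposited scanner files as the processed signal of Agilent Feature Extraction 11.5.1.1, background-subtracted and detrended within each array, per the file headers; the submitters' processing notes name 10.7. The authors' deposited table holds log2 values: subtracting 1 constant per array from the log2 processed signal gives its entries to within 0.01 for 99.3% of probes. Its columns have medians of -3.90 (PBS) and -3.77 (TSG-6). Scale and direction are therefore known, and centring was per array.

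Levels are log2 processed signal less the 75th percentile over the 59305 non-control spots of the array, whose signal was 3158 with PBS and 2476 with TSG-6. No spot was saturated. Outlier-flagged spots (3.40% and 6.44%) were left out, and a probe was kept if 50% or more of its spots were well above background (73.1% and 73.9% of all spots were). Accessions were matched to names through the RefSeq table of assembly GRCm38.p6. Its gene coordinates were used only to find which members are neighbours. A gene was read from the probe above background on more arrays, then from the brighter one. Genes were counted by a 2-fold size rule. Where only 1 array was above background, the fold is an estimate: the bright level against the higher of the dim probe and the lowest detected signal. It is no strict bound, since a probe not well above background can lie higher than that signal. The number of arrays limits the precision. The members and lists were chosen with earlier results of these data known. All members are named; of the pathway lists, ligands, receptors, genes past 2-fold and up to 4 with the largest differences; of markers, those past 2-fold and some defining ones. Cxcl10, Tgtp2, Ly6d, Siglech, Tlr9, Alb and the Oas1 relatives Oas1c, Oas1d, Oas1e, Oas1f and Oas1h were named after their values were seen. The steps were tested on simulated data. Alternatives covered background correction (limma 3.58.1 normexp on the median signal, offset 50), scaling, filters, probe choice and family make-up. They were read for the members, their families and all genes, and not for the pathway and marker lists.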

Additional observations from a re-analysis of the deposited data

How the results depend on the processing

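No paired analysis was possible because each group is 1 array, and for the same reason no replicate could be left out. Under spike-in scaling the medians were -0.84 for the type I families, -0.35 for the type II families and -0.46 for all members; with the percentile of unflagged spots they were -0.23, 0.26 and 0.15. In both the median of all genes moved by the same amount as the members, which the construction of these scalings entails. With normexp the type I median was -0.25, the gap between the families -0.27 and the count of members at least 2-fold lower 0; with the stricter filter on dim probes that count was 0 as well, since Oas1g was left out. Loess put the type II median at -0.18. At 1.5-fold 3 members were lower. The type I median was -0.19 with the other listed genes added and -0.040 over the Ifit genes alone, and the gap was -0.010 without the Oas genes and -0.35 without Oas1g and Oas3; these last 3 were chosen after seeing the data, as was the gap of -0.16 with the other listed genes added. Of 377 single member values under the alternatives, 287 moved by less than the SD between replicate spots, and 90 moved by more. Much of this count is fixed by the settings and is no measure of how robust the members are. Spike-in scaling and the percentile of unflagged spots move every gene by 1 constant above that SD. Other scalings add a constant below it, and the filters leave most values as they were. Oas1g, the 1 member past 2-fold, stayed below 0 wherever it was measured. The gap between the families kept its sign in each of these settings, though the scalings that add a constant to an array could not change it. Dim signal limits Oas1g, Oas3, Gbp5, Tgtp1, Gbp2b and Slfn5.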

Other observations

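A list of chemokines, enzymes and other genes linked to interferon gamma, with Slfn genes among them, gave a mixed picture. Of 9 measured genes, 1 passed 2-fold, in the lower direction, and the median was 0.00023. Cxcl9, the T cell chemokine that is a sensitive reporter of interferon gamma, was 2.29 in the PBS pool and 1.28 in the TSG-6 pool, 2.01-fold lower, with -0.67 at its second probe. Cxcl10, a related chemokine, had only flagged spots and differed by -0.68 with them kept. Nos2, the inducible nitric oxide synthase gene, differed by 0.36, Cd274, which encodes PD-L1, by -0.39, and Acod1, the itaconate-making enzyme gene, by 0.52. Slfn5 was above background in the TSG-6 pool only, an estimated 3.72-fold higher. Its signal was dim, at 16.7 in the PBS pool and 70.2 in the TSG-6 pool, so this value is uncertain.

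Of 36 matched members, 4 (11.1%) had only flagged spots, against 6.18% of all matched genes. With 4 genes this difference is too small to read as a trait of the members. All 4 flags lay on the TSG-6 array. With flagged spots kept the differences were 0.57 for Ifit1, 0.09 for Ifi35, -0.04 for Irf7 and -0.05 for Gbp3, so that leaving them out removed the highest member from the list.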
